A study of Mus musculus with 61 samples.

Results

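Solute carriers are the membrane proteins that move sugars, amino acids, bile acids, fatty acids, nucleosides, vitamins and metal ions into and out of cells and organelles. The members described here are all genes on the array whose symbol begins with Slc or Slco and a digit, other than Slc40a1, Slc39a14, Slc30a1 and Slc30a10, which left 366 of the 19057 genes. A few members match by symbol but encode no carrier, such as Slc9a3r1, which encodes a scaffold protein. A member was measured where at least 1 of its probes had a detection p-value below 0.05 on at least 5 arrays, and the brightest such probe stood for the gene. By that rule 214 members were tested in preparations 1 to 4 and 219 in preparations 6 to 11, of which 196 were tested in both, 18 only in 1 to 4 and 23 only in 6 to 11. The other 129 members passed in neither, and 71 of the 366 were detected on no array.

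Primary hepatocytes of C57BL/6 background were cultured with serum for a day, starved of serum overnight and given 200 ng/mL IL-6, and RNA taken at 0, 1, 3, 6 and 12 h was measured on Illumina mouse arrays. The gp130- mice carry an alb-Cre transgene and gp130 flox/flox alleles, so that Cre, made under the albumin promoter, deletes gp130 (Il6st), the signalling subunit shared by the receptors of the IL-6 family. The gp130flox controls are littermates that carry the floxed alleles. All arrays after 0 h had received IL-6, so time in culture and IL-6 cannot be told apart, and cells that do not make Cre keep gp130 in both genotypes. The 61 arrays comprise 28 of gp130- and 33 of gp130flox hepatocytes. Each carries a genotype, a time and a number, and the arrays that share both genotype and number are treated as 1 preparation, although it is not stated whether that number marks an animal or a culture. Of the 13 preparations, gp130- numbers 6, 7 and 9 and gp130flox numbers 7 to 11 form one set of 36 arrays, and gp130- numbers 2, 3 and 4 and gp130flox numbers 1 and 2 form the other set of 25 arrays. The labels name mice and the study speaks of several mice per genotype, but neither ties a number to a mouse. P-values for genotype within a set, and over both sets with times averaged, measure the spread between preparations, which may be partly technical. Tests of IL-6 changes and the fit of all arrays counted arrays of a preparation as independent, unless a replicate block is named. In bulk samples fewer cells of a type and less RNA per cell cannot be told apart.

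In hepatocytes the blood-facing membrane carries organic anion transporters of the Slco family, bile acid and cation transporters, the glucose transporter Slc2a2 and amino acid exchangers, while mitochondrial carriers of the Slc25 family link the cytosol to the urea cycle and to fatty acid oxidation. During the acute phase response, IL-6 acts through gp130 and STAT3, and hepatocytes are known to lower part of their transport and metabolic programme while they secrete acute phase proteins. Zinc and iron carriers of the liver are also known to respond to inflammation.

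The 2 sets stood apart before any transporter was considered. Profiles correlated at 0.881 to 0.927 between the sets over all genes, against at least 0.984 within gp130- and 0.993 within gp130flox preparations 6 to 11. The hepatocyte marker Cyp2e1 averaged 13.68 in gp130- and 13.01 in gp130flox preparations 6 to 11, but 4.92 and 4.44 in preparations 1 to 4. Alb was detected on 1 of 25 arrays of preparations 1 to 4, and averaged only 6.45 and 5.48 in 6 to 11. Apoa1, Ttr, Serpina1a and Cps1 also averaged lower in preparations 1 to 4 in both genotypes. Trf stayed level (14.35 and 14.42 in 1 to 4, 14.23 and 14.43 in 6 to 11). Hnf4a averaged higher in 1 to 4 (9.04 and 8.50) than in 6 to 11 (8.15 and 7.84). The dividing-cell marker Anln (9.80 in gp130-, 10.04 in gp130flox) and the cholangiocyte marker Krt19 (8.82 and 8.10) were bright in preparations 1 to 4. In preparations 6 to 11 Anln was at 4.32 and 4.58 and Krt19 at 4.25 and 4.42, in gp130- and gp130flox hepatocytes in turn. Xist was present in gp130- preparations 2 and 3 only, up to 8.86. Genotypes were therefore compared within each set, and every level here is a log2 normalized intensity, averaged over times within a preparation unless a time is named. The targeted gene, Il6st, fell in gp130- hepatocytes by 0.70 in preparations 6 to 11 (limma adjusted p = 0.00108), and averaged 5.18 in gp130- against 6.23 in gp130flox preparations 1 to 4 (adjusted p = 0.185).

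In preparations 6 to 11, with the times averaged, gp130- hepatocytes had higher levels of 18 and lower levels of 7 of the 219 tested members, where a call needed more than a 1.5-fold difference and an adjusted p below 0.05. This is 11.4% of the members, against 7.97% of all 10977 genes tested (4.3% higher and 3.67% lower). The members' median difference was 0.07, against 0 over all genes. Ranges of the 3 gp130- and 5 gp130flox preparations did not overlap for any called member. The calls came from these same values, so this is a description. Called or not, 41 higher and 20 lower of the 219 members had ranges that did not overlap. One of the 18, Slc16a5, passed the detection rule through its gp130- arrays alone, which favours a difference, so its call is a description. Among the 184 members detected on at least 5 arrays of each genotype, 17 were higher and 7 lower. Of 43 tested members of a list of transporters that hepatocytes are known to use, 11 were higher, 2 were lower and 30 were not called, with a median difference of 0.30. That list, which also holds Slc9a3r1, was chosen with earlier results of these data known, so its counts are a description.

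The glucose transporter of the hepatocyte, Slc2a2 (GLUT2), had 8.37, 8.26 and 8.09 in gp130- preparations 6, 7 and 9, against 6.57, 6.79, 6.55, 6.34 and 6.41 in gp130flox preparations 7 to 11. It was 3.27-fold higher in gp130- cells (log2 difference 1.71, SE 0.11, adjusted p = 4.38e-06), and its other probes gave differences of 1.5 and 1.39. Slc37a4, which carries glucose 6-phosphate into the endoplasmic reticulum for glucose release, averaged 5.63 ± 0.23 in gp130- and 4.58 ± 0.22 in gp130flox preparations (SD, n = 3 and 5), 2.06-fold higher with an adjusted p of 0.00049. Its probe was detected on 12 of 13 gp130- arrays and on 9 of 23 gp130flox arrays, so that the lower group lay near background. Slc2a9, a urate transporter, was past the p threshold but not the fold (0.50, adjusted p = 0.019). By contrast Slc2a1, the widespread basal glucose transporter, averaged 10.57 ± 0.18 in gp130- and 10.47 ± 0.05 in gp130flox preparations (adjusted p = 0.504). Of 18 tested sugar transporters, 3 were higher and none lower in gp130- cells. The third was Slc50a1, a sugar exporter of the SWEET family, which was named after its values were seen (8.80 in gp130-, 8.08 in gp130flox, adjusted p = 0.000208).

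Among the transporters of bile acids and organic ions, Slco1b2, which takes up bile acids, bilirubin and many drugs from the blood, had 9.59, 9.20 and 9.06 in gp130- preparations 6, 7 and 9. In gp130flox preparations 7 to 11 it had 7.89, 7.83, 7.32, 7.39 and 7.27. All gp130- values lay above all gp130flox values, and the difference of 1.74 (SE 0.17) was 3.34-fold (adjusted p = 6.08e-05). Another Slco1b2 probe gave 1.52. Slco1a4 and Slco2b1, uptake carriers of the same family, were each 0.51 higher, short of the fold threshold (adjusted p = 0.00606 and 0.0361). Slc47a1, which expels organic cations into bile, averaged 9.09 in gp130- and 8.45 in gp130flox preparations (0.64, adjusted p = 0.0215), and this call was lost in 7 of 15 alternative settings. The remaining call of this class was Slc22a18, an organic cation transporter-like protein, named after its values were seen (10.01 in gp130-, 9.33 in gp130flox, adjusted p = 0.00698). In all, 3 of 24 in the class were higher and none lower. The main sodium-dependent bile acid importer Slc10a1, the basolateral exporter subunit Slc51a and the citrate importer Slc13a5 were detected on no array, and Slco1a1 on at most 2 arrays of either set, so nothing can be said of them at this signal. Slc51b, the partner of Slc51a, averaged 4.58 in gp130- and 4.62 in gp130flox preparations (adjusted p = 0.824). Of 7 tested partners of these transporters, 3 were higher in gp130- cells, namely the bile salt exporter Abcb11 (0.85), the phospholipid exporter Abcb4 (0.85) and the sterol exporter subunit Abcg5 (1.22). Abcc2, which exports organic anions into bile, was not called (0.58, adjusted p = 0.0102).

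**Figure D1:**
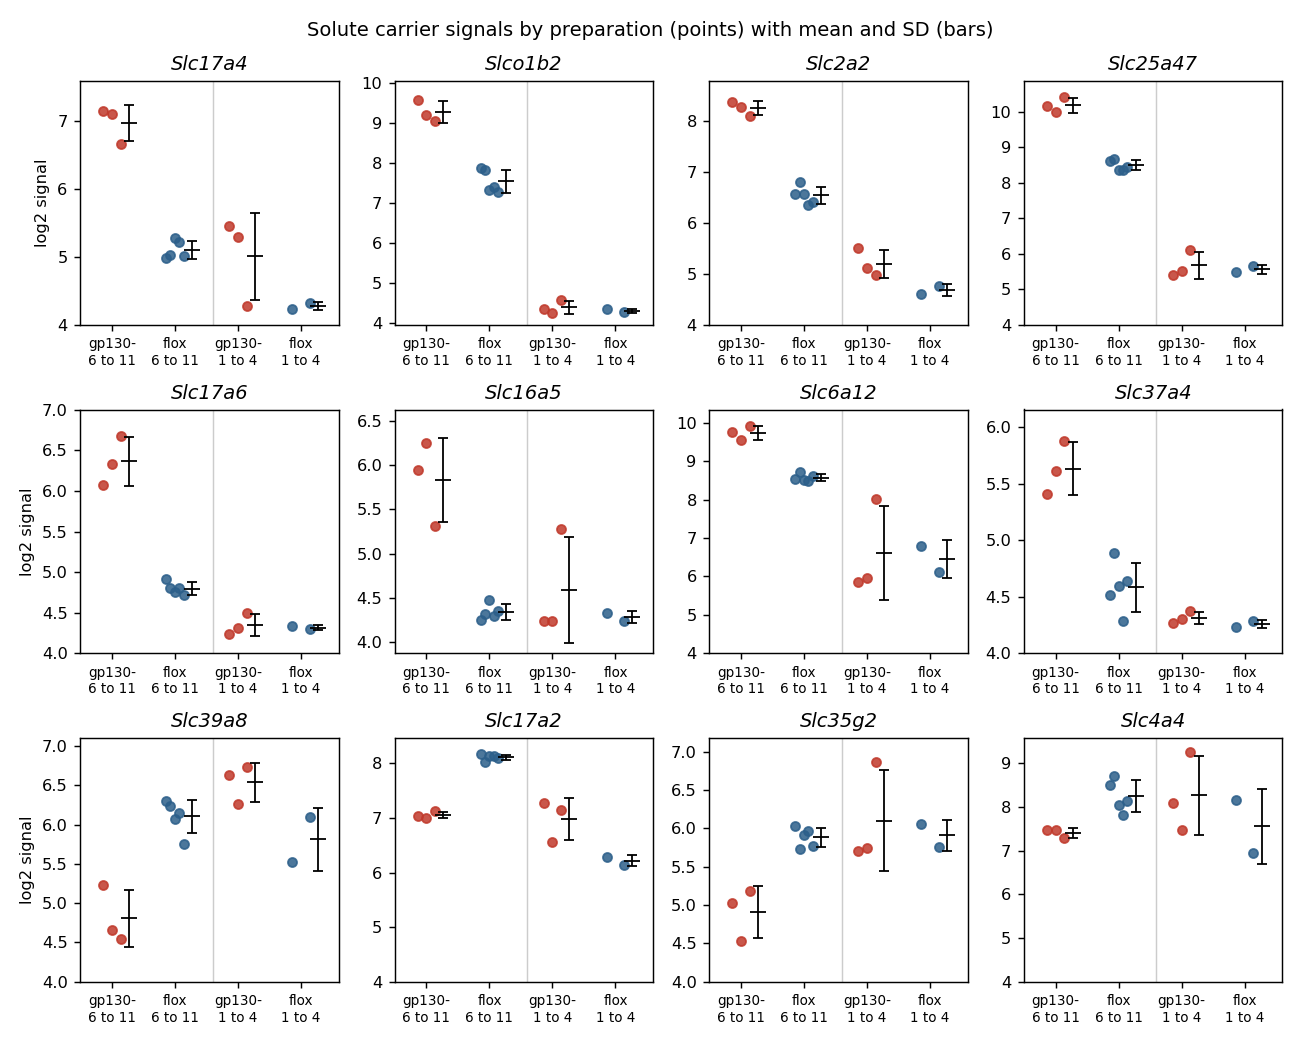
Log2 normalized intensity of 12 called transporters, with 1 point per preparation (mean over times) and the group mean with its SD beside the points, for gp130- and gp130flox (written flox) in preparations 6 to 11, left of the line, and in preparations 1 to 4, right of it. In preparations 6 to 11 the genotypes do not overlap in any panel, with gp130- above in the upper rows and below for Slc39a8, Slc17a2, Slc35g2 and Slc4a4.

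The promoter windows of Slco1b2 and of Slc17a2, the transporter that differed from 0 h after IL-6 in gp130flox cells, are shown because these members moved in opposite directions between the genotypes. Both windows come from RefSeq on GRCm38.p6, run 5′ to 3′ on the plus strand and hold 300 bases around the annotated start. Capitals mark matches to the STAT palindrome TTCNNNGAA and to the HNF1 half-site GTTAAT, searched on both strands. The first window is chr6:141629268-141629567, with matches at 206 and 66 bases before the start, and the second is chr13:23806743-23807042, with a match 191 bases before it.
Slco1b2: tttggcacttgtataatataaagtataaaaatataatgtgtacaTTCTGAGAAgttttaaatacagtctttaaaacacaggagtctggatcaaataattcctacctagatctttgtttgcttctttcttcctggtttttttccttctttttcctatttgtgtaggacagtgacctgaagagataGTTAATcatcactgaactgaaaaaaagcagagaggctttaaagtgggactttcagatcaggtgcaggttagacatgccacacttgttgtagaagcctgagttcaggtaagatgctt
Slc17a2: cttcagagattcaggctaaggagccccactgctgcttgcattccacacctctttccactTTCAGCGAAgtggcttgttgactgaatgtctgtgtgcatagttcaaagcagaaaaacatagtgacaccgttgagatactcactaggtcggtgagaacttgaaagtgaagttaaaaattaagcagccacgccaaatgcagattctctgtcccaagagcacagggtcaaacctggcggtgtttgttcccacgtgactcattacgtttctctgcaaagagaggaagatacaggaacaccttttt
Of 239 windows of the tested members, 17 (7.11%) held TTCNNNGAA, against 8.3% of all 32851 windows. It stood in 2 of 22 windows of members higher in gp130- cells and in 1 of 7 of members lower there. GTTAAT stood in 8 of the 239 (3.35%), against 7.1% of all windows, and in 3 of the 22 windows of higher members, those of Slc16a10, Slc6a13 and Slco1b2. Windows were at hand for 13 of the 18 higher and 5 of the 7 lower members. These counts describe letters in a window, not binding.

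Of 36 tested amino acid transporters, the largest class tested, 5 were higher and 1 was lower. Slc6a12, the betaine and GABA transporter that serves osmotic balance, had 9.75, 9.54 and 9.91 in gp130- preparations 6, 7 and 9, against 8.54, 8.73, 8.50, 8.49 and 8.60 in gp130flox preparations 7 to 11. It was 2.24-fold higher (1.16, SE 0.10, adjusted p = 2.67e-05). Its neighbour in the genome, Slc6a13, which imports GABA and taurine in the liver, was 0.71 higher (10.25 in gp130-, 9.55 in gp130flox, adjusted p = 0.000362) and was named after its values were seen. Slc38a3, a glutamine transporter of the system N type, averaged 7.94 ± 0.42 in gp130- and 7.06 ± 0.19 in gp130flox preparations (adjusted p = 0.00495). Slc1a2, a glutamate importer, averaged 8.10 ± 0.56 and 7.14 ± 0.10 in the same order (adjusted p = 0.00569), and of its other probes one, detected on all 36 arrays, also gave 0.96, while those detected on 14 and 10 arrays gave 0.43 and -0.05. For both, gp130- preparation 9 was the highest, at 8.42 for Slc38a3 and 8.74 for Slc1a2. Slc7a2, which brings arginine and other cationic amino acids into the cell, averaged 7.61 in gp130- and 6.99 in gp130flox preparations (adjusted p = 0.0287), a call lost in 10 of 15 alternative settings. The related Slc7a3 was the lower member (4.89 in gp130-, 5.63 in gp130flox, adjusted p = 0.000419), with a second probe at -0.05. Slc16a10, which carries aromatic amino acids and is grouped here by family with the monocarboxylate carriers, averaged 7.22 ± 0.19 in gp130- and 6.58 ± 0.03 in gp130flox preparations (adjusted p = 0.000918). Slc6a6, the taurine transporter, was 0.47 lower, below the fold threshold (10.70 in gp130-, 11.17 in gp130flox, adjusted p = 0.00658). The system A transporter Slc38a4 (difference 0, adjusted p = 1), the cystine exchanger Slc7a11 (0.03, adjusted p = 0.908) and the heavy chain Slc3a2 (0.04, adjusted p = 0.85) were not called.

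Within the cell, Slc25a47, a liver-specific mitochondrial carrier, had 10.17, 9.99 and 10.42 in gp130- preparations 6, 7 and 9, against 8.62, 8.67, 8.37, 8.36 and 8.45 in gp130flox preparations 7 to 11. The groups lay more than 1 log2 unit apart, a 3.23-fold difference (1.69, SE 0.12, adjusted p = 5.08e-06). It was the single call among 31 tested mitochondrial carriers. Carriers of the urea cycle and of fatty acid oxidation were not called, among them the ornithine carrier Slc25a15 (0.30, adjusted p = 0.0862), the aspartate-glutamate carrier Slc25a13 (0.02, adjusted p = 0.936) and the carnitine-acylcarnitine carrier Slc25a20 (0.02, adjusted p = 0.918). None of 7 fatty acid transporters was called. Slc27a5, which activates bile acids and very long chain fatty acids, averaged 11.76 ± 0.28 in gp130- and 11.42 ± 0.07 in gp130flox preparations (adjusted p = 0.0698), and Slc27a2 10.52 ± 0.44 and 10.21 ± 0.13 (adjusted p = 0.229).

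The Slc17 family, which holds anion and phosphate carriers of the plasma membrane and vesicular glutamate carriers, moved in both directions. Slc17a4, an organic anion carrier, had 7.15, 7.11 and 6.67 in gp130- preparations 6, 7 and 9, against 4.99, 5.03, 5.28, 5.22 and 5.01 in gp130flox preparations 7 to 11, which was 3.66-fold higher (1.87, SE 0.13, adjusted p = 4.54e-06). Slc17a2 had 7.04, 7.01 and 7.13 in the gp130- and 8.16, 8.03, 8.13, 8.13 and 8.10 in the gp130flox preparations, in the same order. It was 2.08-fold lower in gp130- cells (-1.05, SE 0.08, adjusted p = 7.42e-06), and its spread of 0.06 and 0.05 (SD) was small in both groups. A second Slc17a2 probe gave -0.98. In the order of RefSeq genes Slc17a2, Slc17a3, Slc17a1 and Slc17a4 follow one another, with differences of -1.05, 0.92, 0.19 and 1.87. Of these, Slc17a3, a urate and anion carrier, was called (adjusted p = 0.00215) and Slc17a1 was not (adjusted p = 0.265). Slc17a6, a vesicular glutamate transporter, averaged 6.36 ± 0.31 in gp130- and 4.80 ± 0.08 in gp130flox preparations (adjusted p = 1.32e-05), and was detected on 12 of 23 gp130flox arrays. Slc16a5, of the monocarboxylate family, averaged 5.83 ± 0.48 and 4.34 ± 0.09 in the same order, with detection on 13 of 13 gp130- and 3 of 23 gp130flox arrays. Since it passed the detection rule through gp130- arrays alone, these levels are a description.

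Metal carriers held 3 of the 7 lower members. Slc39a8 (ZIP8), an importer of zinc and manganese, had 5.23, 4.65 and 4.55 in gp130- preparations 6, 7 and 9, against 6.30, 6.24, 6.07, 6.15 and 5.76 in gp130flox preparations 7 to 11. It was 2.45-fold lower (-1.29, SE 0.16, adjusted p = 0.000351), and was detected on 8 of 13 gp130- and 23 of 23 gp130flox arrays. Slc30a7, which loads zinc into the Golgi, averaged 9.02 in gp130- and 9.75 in gp130flox preparations (adjusted p = 0.000197). The gp130- preparations were equal to 2 decimals, and a second probe gave -0.58. Slc11a2 (DMT1), the importer of ferrous iron, averaged 7.5 and 8.11 in the same order (adjusted p = 0.0033), and its other probes differed by -0.80 and -0.04. The one higher metal carrier was Slc41a3, a magnesium transporter, at 6.94 in gp130- and 5.95 in gp130flox preparations (adjusted p = 0.000152), with other probes at 0.81 and -0.05. Outside the metals, Slc4a4, the sodium bicarbonate cotransporter, averaged 7.41 in gp130- and 8.25 in gp130flox preparations (adjusted p = 0.00803), although its other probes differed by -0.11 and 0. Slc35g2, a member of the family of nucleotide sugar carriers, averaged 4.91 and 5.88 in the same order (adjusted p = 0.000754). None of the 12 vitamin, choline and folate carriers and none of the 5 nucleoside carriers was called.

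Other genes moved beside these transporters in preparations 6 to 11. Of 8 tested hepatocyte markers, 3 were higher in gp130- cells, namely Alb (0.97), Cyp2e1 (0.67) and Cps1 (1.68), and the log2 of their summed signal over the list ran from 16.21 to 16.33 in gp130- and from 16.05 to 16.20 in gp130flox preparations. Of the cholangiocyte list 1 gene was tested, Sox9, which was 0.98 lower, and Krt7 and Krt19 were near background. None of 6 endothelial, 4 Kupffer, 2 stellate and 2 dividing-cell markers was called. Of 10 tested regulators of transporter genes, the nuclear receptors Nr1h4 (0.67), Nr1i2 (0.91) and Nr1i3 (0.90) were higher and Cebpb (-0.73) and Stat3 (-1.33) lower, while Hnf4a was not called (0.32, adjusted p = 0.183). The part of these markers and regulators in the transporter differences was not tested.

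In preparations 1 to 4 no member was called with limma with the times averaged, and 11 of 214 had an unadjusted p under 0.05 with a fold over 1.5. Over all 11076 genes 3 were called there (0.0271%, of which 0.00903% higher and 0.0181% lower), with 3 gp130- and 2 gp130flox preparations. The median standard error of the members was 0.17, against 0.11 in preparations 6 to 11. Slc16a10 had the smallest p, at 6.88, 6.85 and 6.93 in gp130- preparations 2, 3 and 4 and at 6.12 and 6.07 in gp130flox preparations 1 and 2 (0.79, SE 0.10, adjusted p = 0.234). Of the 15 members higher in preparations 6 to 11 that were also tested here, 12 had a positive difference here. Of the 7 lower ones, 2 had a negative and 4 a positive difference, and Slc11a2 a difference of 0. The median difference here was 0.03 over members and 0 over all genes. Without the same counts of signs over all genes, these counts are a description.

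Slc17a2 and Slc39a8 differed in opposite directions in the sets. Slc17a2 had 7.27, 6.55 and 7.14 in gp130- preparations 2, 3 and 4 and 6.29 and 6.14 in gp130flox preparations 1 and 2, with every gp130- value higher. Slc39a8 had 6.63, 6.26 and 6.73 in the gp130- and 5.53 and 6.10 in the gp130flox preparations, again with every gp130- value higher. Neither was called within preparations 1 to 4. Ranges of the genotypes did not overlap there for 28 higher and 17 lower of the 214 tested members, so such a separation was common. The genotype difference in preparations 6 to 11 minus that in 1 to 4 was -1.82 for Slc17a2 (SE 0.21, adjusted p = 0.00138) and -2.02 for Slc39a8 (SE 0.30, adjusted p = 0.00676). The same test gave positive values for 7 members, which with these 2 are 3.67% of 245 members, against 1.94% of all genes (1% positive and 0.938% negative). Slc25a47 (1.58, adjusted p = 0.0092), Slc2a2 (1.20, adjusted p = 0.0154) and Slc41a3 (1.05, adjusted p = 0.0079) were among them, all higher in gp130- cells of preparations 6 to 11. Another 3, Slco1b2 (1.66), Slc17a6 (1.53) and Slc37a4 (0.99), did not pass the detection rule in preparations 1 to 4, with detection on 3, 3 and 1 of 25 arrays and mean levels of 4.35, 4.34 and 4.29. For them the value restates the difference in preparations 6 to 11 and measures no genotype difference in 1 to 4, and the call of Slc37a4 was lost in 13 of 20 alternative settings. Slc25a25, the ATP-Mg and phosphate carrier of mitochondria, differed in sign (0.25 in preparations 6 to 11, -0.55 in 1 to 4, adjusted p of the difference = 0.0228).

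With both sets in 1 fit and the set as a term, 12 members were higher and 2 lower in gp130- cells, 5.71% of 245, against 3.15% of all genes (1.55% higher and 1.6% lower). Slc16a10 was the member with the smallest p (0.70, SE 0.07, adjusted p = 6.42e-05), with differences of 0.80 in preparations 1 to 4 and 0.64 in 6 to 11. The cationic amino acid carrier Slc7a2 (0.89, adjusted p = 0.0218), Slc6a13 (0.63, adjusted p = 0.0138) and Slc22a18 (0.64, adjusted p = 0.0237) also rose. Their differences were 1.31, 0.52 and 0.57 in preparations 1 to 4 and 0.62, 0.70 and 0.68 in 6 to 11. Both lower members had not been called within a set. Slc25a37 (mitoferrin-1), which brings iron into mitochondria, had 7.70, 7.55 and 7.98 in gp130- preparations 2, 3 and 4 against 9.07 and 8.51 in gp130flox preparations 1 and 2. Its difference over both sets was -0.60 (adjusted p = 0.0192), with -1.05 in preparations 1 to 4 and -0.31 in 6 to 11. Slc41a2, a magnesium transporter, differed by -0.92 (adjusted p = 0.0295), with -1.45 and -0.58 in preparations 1 to 4 and 6 to 11. The call was lost in 9 of 21 alternative settings for Slc25a37, among them without gp130- 2, gp130- 3 or gp130flox 1. It was lost in 8 of 21 for Slc41a2, among them without gp130- 9 or gp130flox 1, 2, 9 or 11. The other 8 higher members were Slc2a2, Slc17a4, Slc25a47, Slc16a5, Slc17a3, Slc17a6, Slco1b2 and Slc37a4. Of these, Slco1b2, Slc17a6 and Slc37a4 were detected on 3, 3 and 1 of 25 arrays of preparations 1 to 4. Their calls thus rest on preparations 6 to 11, and were lost in 5, 6 and 12 of 21 alternative settings. Slc25a47 differed by only 0.11 in preparations 1 to 4. Slc16a5 passed the detection rule in preparations 6 to 11 through gp130- arrays alone. No member was called when the set term was left out.

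**Figure D2:**
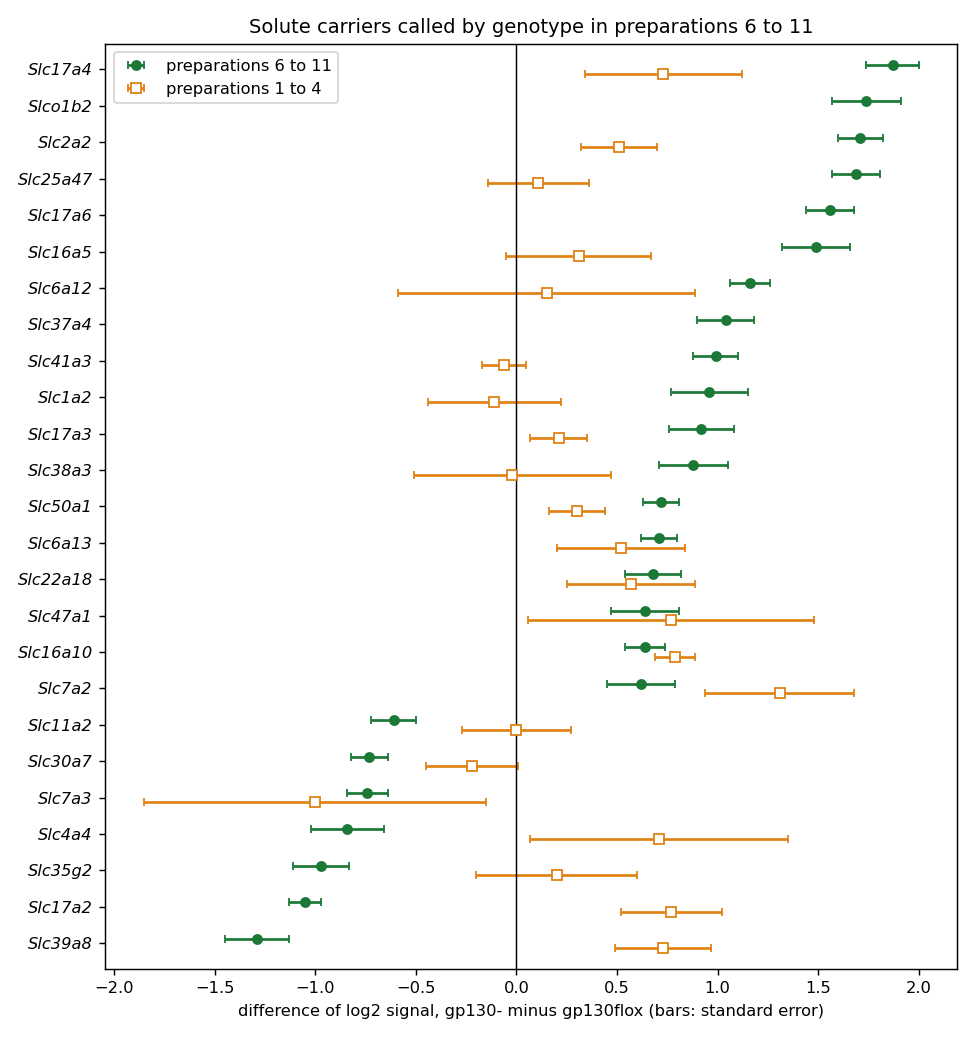
Log2 difference of gp130- minus gp130flox with its standard error for the 25 members called in preparations 6 to 11, 1 row per member, in preparations 6 to 11 and, where the member was tested, in preparations 1 to 4. Slc16a10 and Slc7a2 lie to the right of 0 in both sets, while Slc17a2 and Slc39a8 lie at -1.05 and -1.29 in preparations 6 to 11 and at 0.77 and 0.73 in preparations 1 to 4.

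At single times, 39 members of preparations 6 to 11 differed between the genotypes at 1 time or more, 26 higher and 13 lower, which was 17.8% of members, against 13.8% of all genes (6.74% higher and 7.1% lower). The counts of higher and lower members were 12 and 5 before IL-6, 14 and 2 after 1 h, 11 and 4 after 3 h, 17 and 8 after 6 h, and 18 and 11 after 12 h. Over all genes 3.18%, 4.41%, 3.67%, 8.87% and 9.3% were called at those times. Thus members differed before IL-6 was given. Slc2a2, Slco1b2, Slc25a47, Slc6a12, Slc16a5, Slc17a4, Slc17a6 and Slc41a3 were higher, and Slc39a8 and Slc35g2 lower, at all 5 times. For Slc16a5 this is a description, since it passed the detection rule through gp130- arrays alone. Slc2a2 at 0 h had 8.01, 7.96 and 8.24 in gp130- arrays against 6.89, 7.13, 6.76, 6.73 and 6.92 in gp130flox arrays. Its difference was 1.18, 1.61, 1.69, 2.27 and 1.85 at 0, 1, 3, 6 and 12 h, and that of Slco1b2 was 1.32, 1.78, 2.13, 2.22 and 1.51. The widening for Slc2a2 did not pass the adjusted F-test of the difference between the changes over time (unadjusted p = 0.00807). Another 14 members were called at 1 time only. In preparations 1 to 4 no member was called at any time (21 had an unadjusted p under 0.05 with the fold at 1 time or more, and 0.0361% of all genes were called). With the number as a random replicate block 6 members were called there, and 7 with all groups of the set in 1 fit. The latter counted the arrays of a preparation as independent. The share of all genes called was not counted for either fit, so the 6 and 7 are a description. With all arrays in 1 fit without a set term 4 members were called, 1.63% against 1.72% of all genes (0.592% higher and 1.13% lower), and 9 with a random replicate block. The 4 were Slc16a10 (0.80 after 6 h, 0.77 after 12 h) and Slc7a2 (1.14 at 12 h), both higher, and Slc25a37 (-0.88 after 3 h, -0.80 after 6 h) and the peptide and histidine carrier Slc15a4 (-0.73 at 6 h), both lower.

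The change with IL-6 against 0 h passed the test for 1 transporter. In gp130flox preparations 6 to 11, Slc17a2 was the single member called (0.457% of 219, against 1.33% of all genes, 0.884% higher and 0.446% lower). Its gp130flox arrays had 7.76, 7.49, 7.56, 7.61 and 7.51 at 0 h, and averaged 7.82 after 1 h, 8.08 after 3 h, then 8.47 ± 0.24 after 6 h, with 8.54 ± 0.24 after 12 h (SD, n = 5 for the last pair). At 12 h the arrays had 8.82, 8.16, 8.54, 8.66 and 8.52, each above every array of 0 h. Relative to 0 h it had risen by 0.89 after 6 h (adjusted p = 0.00043), then by 0.95 after 12 h (SE 0.14, adjusted p = 0.000134), with an F-test over the times at an adjusted p of 0.000141. In gp130- arrays Slc17a2 had 6.51, 6.87 and 6.70 at 0 h, 7.34, 7.29 and 7.44 after 1 h, then 6.73, 6.75 and 6.77 after 12 h. The gp130- changes were 0.66 at 1 h (unadjusted p = 0.00256, adjusted p = 1) and 0.06 at 12 h, and did not pass the test.

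The change of Slc17a2 at 12 h was 0.90 smaller in gp130- than in gp130flox cells (-0.90, SE 0.22), and the F-test of the difference in the changes over the 4 times had an adjusted p of 0.014, the single call among members (0.457%, against 0.2% of all genes, 0.0455% with a higher and 0.155% with a lower change in gp130-). This call was lost without any one of gp130- preparations 7 or 9 or gp130flox preparations 7, 9 or 11, where the adjusted p ran up to 0.142 and the value from -0.98 to -0.81 over the preparations left out. The genotype difference was already -0.89 at 0 h (adjusted p = 0.00471), and after 12 h it was -1.79 (adjusted p = 1.9e-05). No IL-6 change was called with limma in gp130- preparations 6 to 11, where 5 members had an unadjusted p under 0.05 with the fold, and of all genes 0 were called and 153 passed at that p and fold. The counts of called members were likewise 0 in gp130- and in gp130flox preparations 1 to 4, with 0 and 1 members at the unadjusted p, and 0 for the difference between the genotypes there, with 3. In gp130flox preparations 1 to 4 one array had 8.04 for Slc17a2 at 3 h, and the others lay between 5.68 and 6.35.

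**Figure D3:**
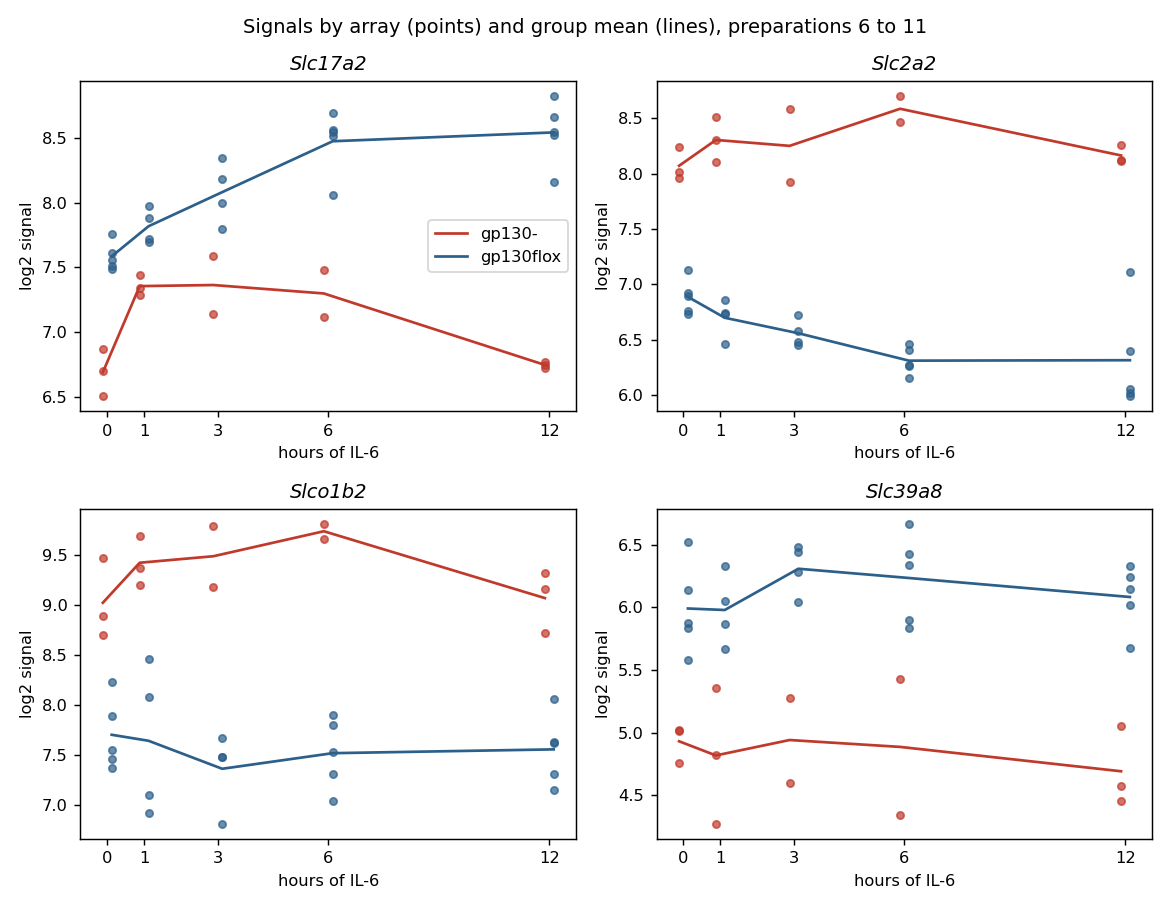
Log2 normalized intensity against hours of IL-6 for Slc17a2, Slc2a2, Slco1b2 and Slc39a8 in preparations 6 to 11, with 1 point per array and lines through the means of gp130- and gp130flox arrays. Slc17a2 stands at 6.73 to 6.77 in gp130- and averages 8.54 in gp130flox at 12 h, while Slc2a2, Slco1b2 and Slc39a8 are apart at all 5 times, 0 h included.

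Transporter levels also differed between the sets, as did those of genes in general. With all preparations of a set pooled, 35 of 245 members were higher and 21 lower in preparations 6 to 11 with no overlap and a difference over 1.5-fold, against 11.9% higher and 15.5% lower among all genes (27.4% together). The share of members was above that of all genes for higher levels. It was below for lower levels and for both directions together. The median difference was 0.07 over members and -0.02 over all genes. No test was made, because the sets, though named by column numbers, were recognised from expression, so a test between them would be circular. Slc27a5 averaged 11.55 in preparations 6 to 11 (11.31 to 12.08) and 4.66 in preparations 1 to 4 (4.51 to 4.83), a difference of 6.89, and was detected on 36 and 18 arrays. Another fatty acid member, Slc27a2, averaged 10.32 and 8.04. Of the 7 members of that class, 2 were higher and 1 was lower in preparations 6 to 11 without overlap and over 1.5-fold. Uptake carriers followed, with Slco1b2 at 8.19 in preparations 6 to 11 and 4.35 in 1 to 4, and Slco2b1 at 6.71 and 4.52. Slc25a47 (9.13 and 5.63), Slc6a12 (9.01 and 6.55), Slc1a2 (7.5 and 5.15) and Slc2a2 (7.17 and 4.99) were also higher in preparations 6 to 11. These 4 and Slco1b2 were also among the members called between the genotypes in preparations 6 to 11.

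Lower in preparations 6 to 11 were Slc44a2, a choline transporter-like protein (6.49, against 8.83 in 1 to 4), and Slc29a4, a transporter of monoamines and nucleosides (4.29, against 6.43). Slc29a4 was detected on none of 36 arrays of preparations 6 to 11 and on all 25 of the other set. The taurine transporter Slc6a6 averaged 10.99 in preparations 6 to 11 (10.58 to 11.30) and 12.72 in preparations 1 to 4 (12.07 to 13.32). Slc7a3 (-1.66), Slc7a4 (-1.55), the prostaglandin transporter Slco2a1 (-1.39) and the glutamine transporter Slc38a1 (-1.30) were also lower, as was Slc9a3r2 (-1.54), which matches by symbol but encodes a scaffold protein and not a carrier. Slc38a1 passed the detection rule only in preparations 1 to 4, and Slco1a4, Slco1b2 and Slc51b only in 6 to 11. By class, transporters of bile acids and organic ions had a median difference of 0.38, with 7 of 26 higher and 1 lower without overlap, and amino acid transporters 0.11, with 4 of 39 higher and 6 lower. These differences went with the marker levels of the sets given above, and the part of cell makeup in them was not tested.

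**Figure D4:**
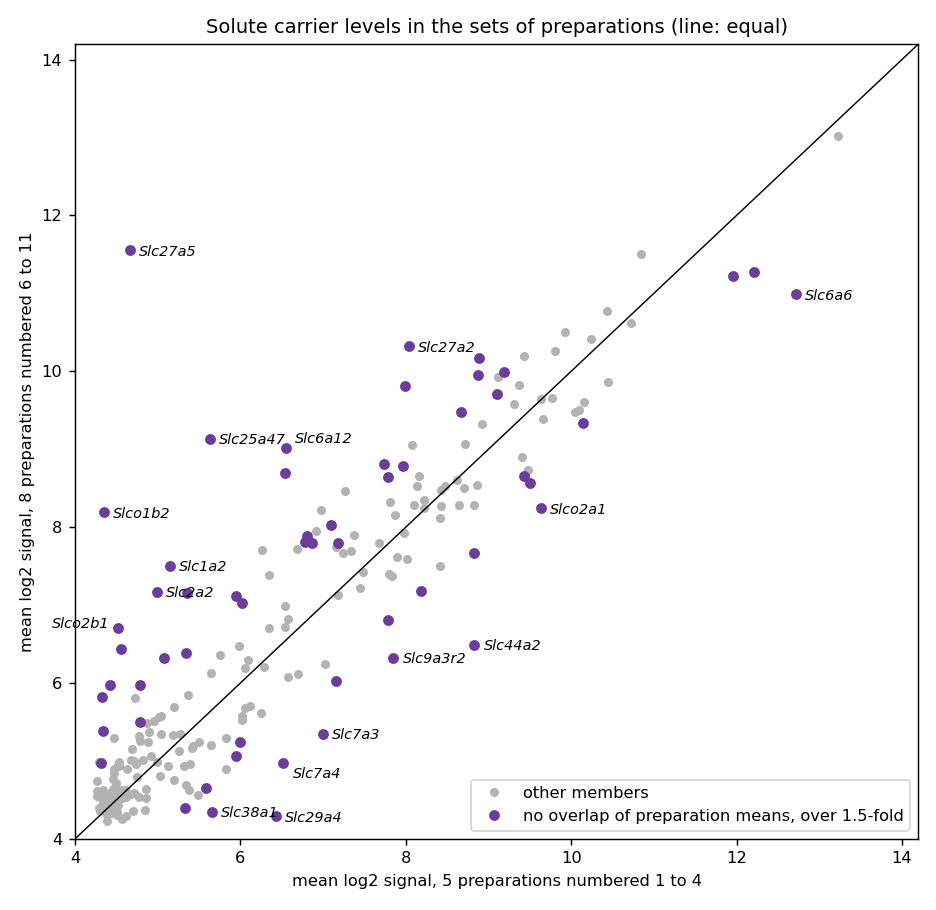
Mean log2 normalized intensity of the 245 members in the 8 preparations numbered 6 to 11 (vertical axis) against that in the 5 preparations numbered 1 to 4 (horizontal axis), 1 point per member, with a line of equal levels and purple points where preparation means did not overlap and differed over 1.5-fold. Slc27a5 lies far above the line, at 11.55 and 4.66, and Slc6a6 and Slc44a2 lie below it.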

How the data were processed

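The authors extracted signal intensities for 45281 probes with GenomeStudio 1.6.0 and deposited them on a linear scale without normalization between arrays, and deposited beside them the detection p-values of the probes. The deposited table of intensity values after the authors' cubic spline normalization served as an alternative, with values below 16 set to 16. Background correction, an offset of 16, quantile normalization and log2 were done here with neqc (limma 3.58.1, R 4.3.3), which infers negative controls through the detection p-values. Probes with 1 gene (34885) were used, and those with several (18) or none (10378) were left out. Entrez identifiers matched 34807 probes to current symbols, with 0 changed. Between 15257 and 19256 probes were detected on an array, and signals close to background limit the folds that can be seen. All deposited signal columns were assigned (0 left over).

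Genotypes were compared on preparation means with lmFit and eBayes, adjusted by the Benjamini-Hochberg method over all tested genes. Single times and IL-6 changes were fitted on arrays, and over several times with limma's F-test. A call required a fold above 1.5 and an adjusted p below 0.05. The members, lists and alternatives were chosen with earlier results of these data known. Named genes are those of the list of transporters that hepatocytes use, the 10 called members with the greatest differences in each direction and comparison, and the 8 members with the greatest difference between sets in each direction. The other named ones are marked as chosen after their values were seen. The fits were tested on simulated data.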

Additional observations from a re-analysis of the deposited data

Results flagged for a closer look

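Among 67 named members with 5 gp130flox preparations 6 to 11, 2 had a preparation far from the others, and chance alone flags a small share of such groups. Slc13a3, a dicarboxylate carrier, was at 4.72 in gp130flox preparation 11, against 4.42 to 4.49 in the other 4, all near background. Slc44a2 was at 6.27 in gp130flox preparation 7, against 6.52 to 6.59 in the other 4.

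The genotype difference in preparations 6 to 11 minus that in preparations 1 to 4 passed limma's test for 9 members. It was 1.20 for Slc2a2 (1.71 and 0.51 in the sets in that order), 1.58 for Slc25a47 (1.69 and 0.11), 1.53 for Slc17a6 (1.56 and 0.03) and 1.66 for Slco1b2 (1.74 and 0.08). It was 0.99 for Slc37a4 (1.05 and 0.05), 1.05 for Slc41a3 (0.99 and -0.06) and 0.80 for Slc25a25 (0.25 and -0.55). For Slc39a8 it was -2.02 (-1.29 and 0.73) and for Slc17a2 -1.82 (-1.05 and 0.77). Slco1b2, Slc17a6 and Slc37a4 were detected on 3, 3 and 1 of 25 arrays of preparations 1 to 4, so their values there are background and the difference between the sets is not a measured difference in genotype effect. The sets also differ in marker levels and in Xist, and the part of these was not tested.

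The change of Slc17a2 at 12 h of IL-6 was -0.90 when that of gp130flox was taken from that of gp130- in preparations 6 to 11, with the test of the difference passed over the 4 times.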

How the results depend on the processing

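Of the 22 named members called in preparations 6 to 11 with times averaged, 291 of 330 values under alternatives kept the call, 39 lost it and none changed sign. The call was kept in all 15 settings by 9 members (Slc16a5, Slc17a2, Slc17a4, Slc17a6, Slc25a47, Slc2a2, Slc39a8, Slc6a12 and Slco1b2). Among them Slc16a5 passed the detection rule through its gp130- arrays alone, so its call remains a description. Of the 12 named members called over both sets, 63 of 252 values lost the call. The 25 calls became 49 on the adjusted p alone (32 higher, 17 lower) and 10 with a fold over 2. The 39 calls at single times became 23 without a detection filter, 20 with a fold over 2 and 60 with array weights. The 14 calls over both sets became 8 with an offset of 50, 28 on the adjusted p alone, 5 with a fold over 2 and 0 without the set term. The 9 differences between sets became 29 with array weights and, in an alternative chosen after seeing the data, 25 without gp130- preparations 2 and 3 (10 higher, 15 lower), where preparations 1 to 4 held 1 gp130- preparation, assumed to vary like the others. The 4 calls over all arrays became 1 with a fold over 2, 80 with array weights and 24 with a set term. With a fold over 2 the 1 IL-6 call in gp130flox and the 1 call of a difference of IL-6 changes became 0 each. In preparations 1 to 4 the count at single times became 7 with all groups in 1 fit, which counted the arrays of a preparation as independent.

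With the number as a random replicate block the count at single times became 6 in preparations 1 to 4, 51 in preparations 6 to 11 and 9 over all arrays. With a fixed replicate block the IL-6 counts stayed at 0 in gp130- and at 0 (preparations 1 to 4) and 1 (6 to 11) in gp130flox, with Slc17a2 the call. For the difference of IL-6 changes in preparations 6 to 11 that block also left 1 of 219 members called, Slc17a2, with 0.392% of all genes. Arrays of 1 preparation correlated at a median of 0.856 over 114 pairs after group means were removed (lowest 0.276), and at 0.369 (lowest -0.369) after set means were removed too. Numbers 2, 7 and 9, shared by the genotypes, correlated at 0.362, -0.014 and 0.173. The 0.362 of number 2 is a description and was not compared with the median of 0.369, which is over pairs of arrays. In preparations 1 to 4 the gp130flox numbers are 1 and 2 only, so once their mean is removed each mirrors the other. Whether samples of 1 number share more than the number was not tested.

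Leaving out 1 preparation at a time gave 23 to 30 calls in preparations 6 to 11 with times averaged (23 without gp130flox 9 or 11), 28 to 53 at single times, 7 to 17 over both sets (7 without gp130- 7 or 9), 6 to 23 differences between the sets, and 3 to 7 over all arrays. It gave 0 to 0 in preparations 1 to 4 with times averaged and at single times, and for IL-6 in gp130- cells of either set, 1 to 2 for IL-6 in gp130flox preparations 6 to 11, and 0 to 1 and 0 to 2 for the difference of IL-6 changes in preparations 6 to 11 and 1 to 4. IL-6 in gp130flox preparations 1 to 4 was not run in this way, since 1 preparation would remain. Members near background, 129 of which were not tested, could hold differences that these arrays cannot show.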

Other observations

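Within the gp130- preparations 1 to 4, number 4 stood apart from numbers 2 and 3 for several transporters. Slc6a12 had 8.01 in number 4, against 5.85 and 5.95 in numbers 2 and 3, and Slc47a1 8.09, against 6.50 and 5.95. Slc7a3 had 8.01, against 5.87 and 5.94, while gp130flox preparation 1 was at 8.42 and gp130flox preparation 2 at 6.79. Slc29a4 went the other way, with 5.30 in number 4, against 6.63 and 7.32 in numbers 2 and 3, and so did Slc6a6, with 12.07, against 13.32 and 13.13. Preparations 2 and 3 are those with Xist signal.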
